A study of Mus musculus with 5 samples.

Results

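RNA polymerase III (Pol III) makes short structured RNAs, among them transfer RNAs, Y RNAs, the 7SK RNA and vault RNAs. This section describes the genes of Pol III itself, of its transcription factors and of the proteins that bind its RNAs, in Dis3l2-/- (KO) and Dis3l2+/+ (WT) nephron progenitor cells. The genes were chosen by name: 35 listed symbols, plus Trove2, the gene of the Ro protein, which the deposited table carries under that older symbol. All 36 were found among the 53927 genes of the table, and all 36 passed the filter on low values, at least 0.5 CPM in at least 2 libraries. The cells were primary nephron progenitors from C57BL/6J embryos, passaged once, with 3 KO and 2 WT libraries of total RNA. Every library came from the same strain, culture method and passage, and the groups differed by label in Dis3l2 alone. The sources used here do not give the embryos' age or number, or which part of Dis3l2 was deleted. Nothing says that the libraries came from separate embryos, so p-values measure only how these libraries vary, which may be technical.

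Pol III is recruited along different routes. At most of its genes TFIIIC binds inside the gene and places TFIIIB, which contains Brf1, Bdp1 and TBP. At the genes of 7SK, Y and some other RNAs the SNAPc complex binds upstream of the gene and a TFIIIB with Brf2 is used instead. The new transcripts end in a run of U, which the La protein (gene Ssb) binds and shields from exonucleases. Ro (Trove2) holds Y RNAs, Larp7, Mepce and Hexim1 hold 7SK RNA, and Mvp, Tep1 and Parp4 are the proteins of the vault particle. Dis3l2 is an exonuclease that degrades RNAs carrying added U at their end, so the comparison asks whether the machinery that makes or holds Pol III RNAs differs in cells without it.

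The 3 RNAs below are shown because they are bound by members described here and carry the T run that becomes the La-binding end. They are the GENCODE M21 transcripts on GRCm38, written 5′ to 3′ as DNA, with the final T run in capitals: Rny1 (chr6:47788069-47788180, minus strand), Rny3 (chr6:47781624-47781725, plus strand) and the last 60 bases of Rn7sk (chr9:78175303-78175633, minus strand), which is 331 bases long.
Rny1: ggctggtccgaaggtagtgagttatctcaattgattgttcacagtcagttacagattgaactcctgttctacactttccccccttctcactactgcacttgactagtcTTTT
Rny3: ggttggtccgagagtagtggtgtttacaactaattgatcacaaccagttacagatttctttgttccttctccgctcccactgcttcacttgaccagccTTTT
Rn7sk, last 60 bases: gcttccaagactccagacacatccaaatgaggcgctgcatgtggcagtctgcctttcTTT
The models of Rny1 and Rny3 end in 4 T and that of Rn7sk in 3.

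Libraries were checked first. Dis3l2 had 6.50, 4.93 and 4.70 CPM in the KO libraries, against 16.04 and 12.2 CPM in the WT libraries, lower in all 3 KO libraries. Its log2 fold change of -1.24 (95% interval -1.74 to -0.75) missed the threshold (limma, Benjamini-Hochberg adjusted p = 0.954). In the authors' deposited table it was -1.38 with an FDR of 0.00855. Low values lay on steps of 1 read, which gave depths of 19.6 M to 49.3 M assigned reads in KO and 22.3 M and 28.3 M in WT. The 36 genes had between 94 and 8906 reads each in a library. Of 12 nephron progenitor markers 11 passed the filter. The summed level of all 12 was 779 to 964 CPM in KO and 753 and 976 CPM in WT, and Pax2 stayed at or under 0.66 CPM in every library. Six2, which defines these progenitors, had 31.9, 26.5 and 18.6 CPM in the KO libraries, against 19.0 and 18.8 CPM in the WT libraries. Cited1, another progenitor marker, had 17.1, 4.74 and 2.73 CPM in the KO libraries, against 15.2 and 1.40 CPM in the WT libraries. Markers of other cells were present too. The 9 stroma markers summed to 651 to 969 CPM in KO and 733 and 1116 CPM in WT, with Foxd1 at most 0.25 CPM. The 5 endothelial markers summed to 40.0 to 60.3 CPM in KO and 48.8 and 72.9 CPM in WT, and the leukocyte markers to 5.29 to 5.71 CPM in KO and 7.84 and 8.16 CPM in WT. The podocyte markers summed to 6.81 to 9.96 CPM in KO and 9.74 and 15.8 CPM in WT, and the ureteric bud markers to 14.6 to 22.3 CPM in KO and 12.5 and 16.5 CPM in WT. In such bulk samples fewer cells of a type and less RNA per cell cannot be told apart, and the part of other cells in the values below was not tested. The share of mitochondrial ribosomal RNA was 31.6%, 32.7% and 32.9% in KO and 40.7% and 38.9% in WT, and its part in the results was not tested. Xist was high in KO replicates 1 and 2 and WT replicate 2 and below 1 CPM in KO replicate 3 and WT replicate 1.

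No gene of the Pol III machinery or of its RNA partners passed the test for a change. Of the 36 genes 0 passed the test over all 14884 genes (limma, adjusted p under 0.05), where 0.00672% of all genes tested passed. At an unadjusted p under 0.05 there were also 0, against 2.77% of all genes, and the smallest unadjusted p was 0.215, for Polr3e. In the authors' deposited table, made with edgeR, 0 of the 36 had an FDR under 0.05, against 0.0315% of all genes in it. The authors' deposited table gave none of the 36, or 0, an unadjusted p under 0.05, against 2.22% of its genes. Both of its shares are over a base that holds 25172 genes at 0 in every library, unlike the 14884 genes tested in limma. In the deposited table the 36 log2 fold changes ran from -0.38 to 0.33.

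The differences were small as well as uncalled. On the log2(CPM + 1) scale used throughout, 19 genes were higher and 17 lower in KO, from -0.31 for Tep1 to 0.30 for Mvp. Without WT replicate 1 the number higher was 30 (83.3%, against 56.2% of all genes tested), and without WT replicate 2 it was 13 (36.1%, against 51.0%). The median was 0.013, beside 0.012 for all genes tested. The median size of a difference, whatever its sign, was 0.072 for the 36 genes and 0.119 for all genes tested. The 36 genes were also the better measured, with a median level of 23.7 CPM against 12.8 CPM and a median residual SD of 0.15 against 0.19. For 31 of the 36 genes the difference between genotypes was smaller than the SD among the 3 KO libraries, as it was for 69.9% of all genes tested.

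How large a change could have been missed is given by the 95% interval of each fold change. For all 36 genes the interval lay within a 2-fold change of CPM + 1 in either direction, as it did for 90.4% of all genes tested. For 28 it lay within a 1.5-fold change, against 55.0% of all genes. The other 8 were Trove2, Snapc2, Gtf3a, Brf2, Maf1, Polr3gl, Mvp and Tep1. These counts hold for CPM + 1 only. In CPM itself the intervals of low genes are wider, and that of Tep1 reaches past a 2-fold fall.

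**Figure D1:**
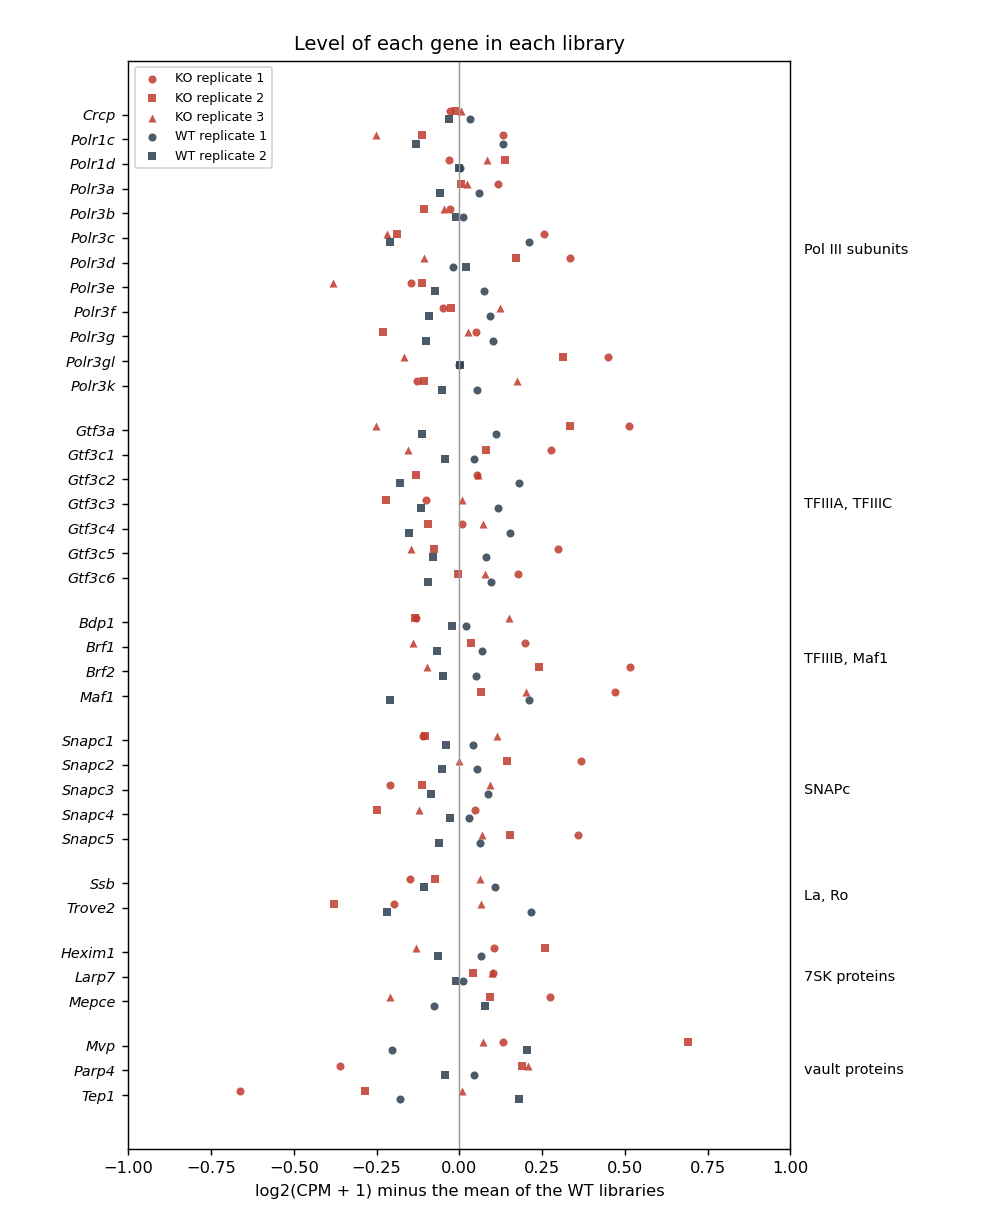
Level of each of the 36 genes in each library as log2(CPM + 1) minus the mean of the WT libraries, with KO in red and WT in dark blue and a symbol for each replicate. KO and WT points overlap for 32 of the 36 genes, and for 31 the genotypes differ by less than the SD among KO libraries.

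The 12 subunits of Pol III showed no shift in common, with 5 higher and 7 lower in KO and a median log2 fold change of -0.02. Polr3a (chr14:24448696-24487058, minus strand, GRCm38), the largest subunit and part of the catalytic centre, had 22.5, 20.7 and 20.97 CPM in the KO libraries, against 21.6 and 19.8 CPM in the WT libraries. Polr3b (chr10:84622292-84727178, plus strand), its partner in the catalytic centre, had 21.6, 20.4 and 21.3 CPM in the KO libraries, against 22.2 and 21.9 CPM in the WT libraries. Both genes were nearly level across all 5 libraries, with log2 fold changes of 0.05 (95% interval -0.28 to 0.37) for Polr3a and -0.06 (95% interval -0.37 to 0.25) for Polr3b. For Polr3b the KO libraries were all just below both WT libraries, by less than its standard error of 0.13.

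Polr3e, a subunit of the initiation and termination module, likewise did not overlap between genotypes, with 18.6, 19.0 and 15.6 CPM in the KO libraries, against 21.8 and 19.6 CPM in the WT libraries. All KO values were the lower ones, and its log2 fold change was -0.21 (95% interval -0.58 to 0.16). Polr3d, its partner in that module, had 31.2, 27.8 and 22.7 CPM in the KO libraries, against 24.2 and 24.9 CPM in the WT libraries, and there KO replicates 1 and 2 were above and KO replicate 3 below both WT libraries. Of the other subunits, Polr3c and Polr3f, which help to open the promoter, Polr3k, needed for termination, the stalk subunit Crcp, and Polr1c and Polr1d, shared with Pol I, had log2 fold changes between -0.08 and 0.06. Crcp was nearly level, with 22.4, 22.6 and 22.9 CPM in the KO libraries, against 23.3 and 22.3 CPM in the WT libraries. Polr3c had 22.7, 16.4 and 16.1 CPM in the KO libraries, against 21.98 and 16.2 CPM in the WT libraries, with replicate 1 of each genotype high and the other libraries low.

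Polr3g and Polr3gl encode alternative forms of the same subunit, and Polr3g is the form known from stem cells and tumour cells. Polr3g (chr13:81673843-81711013, minus strand) had 8.10, 6.49 and 7.95 CPM in the KO libraries, against 8.44 and 7.2 CPM in the WT libraries, and Polr3gl (chr3:96577872-96594181, minus strand) had 23.8, 21.5 and 15.1 CPM in the KO libraries, against 17.1 and 17.2 CPM in the WT libraries. Per kb of exon, Polr3gl stood 4.69 to 8.17 times above Polr3g in the KO libraries and 5.00 and 5.88 times above it in the WT libraries. The log2 ratio of Polr3g to Polr3gl was -1.44, -1.59 and -0.85 in the KO libraries and -0.94 and -1.15 in the WT libraries. The KO libraries lay on both sides of WT, and the difference of the means was -0.25 (p = 0.5, exact two-sided permutation test, where 0.1 is the smallest p that 3 against 2 libraries allow). Without KO replicate 3 the difference of the means was -0.47, and it was -0.10 without KO replicate 2.

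TFIIIA and TFIIIC had 4 genes higher and 3 lower, with a median log2 fold change of 0.02. Gtf3a, the zinc finger factor that starts transcription of the ribosomal RNA made by Pol III, had 13.96, 12.2 and 7.81 CPM in the KO libraries, against 10.3 and 8.71 CPM in the WT libraries. KO replicates 1 and 2 were above both WT libraries and KO replicate 3 below both. Its log2 fold change was 0.20 (95% interval -0.40 to 0.80). The 6 TFIIIC subunits, Gtf3c1 to Gtf3c6, had log2 fold changes between -0.11 for Gtf3c3 and 0.08 for Gtf3c6. The largest subunit, Gtf3c1, which contacts the internal promoter, had 88.2, 76.8 and 65.1 CPM in the KO libraries, against 74.8 and 70.4 CPM in the WT libraries, with the KO libraries on both sides of WT.

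Of the 3 TFIIIB genes and their repressor Maf1, 3 were higher and 1 lower, with a median log2 fold change of 0.13 and 0 passing. Bdp1 (chr13:100017994-100104070, minus strand), which locks TFIIIB onto DNA, had 64.2, 63.97 and 78.2 CPM in the KO libraries, against 71.4 and 69.3 CPM in the WT libraries. Brf1, the TFIIB-like part used at genes with internal promoters, had 30.8, 27.4 and 24.1 CPM in the KO libraries, against 28.01 and 25.4 CPM in the WT libraries. Brf2, its counterpart at genes with upstream promoters, had 7.29, 5.86 and 4.42 CPM in the KO libraries, against 5.01 and 4.6 CPM in the WT libraries. In all 3 the KO libraries lay on both sides of WT, and the log2 fold changes were -0.04 for Bdp1, 0.03 for Brf1 and 0.22 (95% interval -0.31 to 0.75) for Brf2. Maf1 (chr15:76351294-76354380, plus strand), the repressor that binds Pol III when nutrients are short, had 32.8, 24.5 and 26.99 CPM in the KO libraries, against 27.2 and 20.1 CPM in the WT libraries. WT replicate 2 was the lowest of the 5, while WT replicate 1 lay within the range of KO. The log2 fold change of Maf1 was 0.25 (95% interval -0.21 to 0.70), from means of 28.1 ± 4.24 CPM in KO and 23.6 ± 5.01 CPM in WT (SD, n = 3 and 2).

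The 5 SNAPc subunits recruit Pol III to the 7SK and Y RNA genes. Snapc1 had 13.7, 13.8 and 16.2 CPM in the KO libraries, against 15.3 and 14.4 CPM in the WT libraries, with a log2 fold change of -0.03. Snapc5 had 22.1, 19.1 and 17.9 CPM in the KO libraries, against 17.8 and 16.3 CPM in the WT libraries, with all KO libraries above both WT libraries, KO replicate 3 by a narrow margin. Its log2 fold change was 0.19 (95% interval -0.18 to 0.56). Snapc4, the DNA-binding subunit, Snapc2 and Snapc3 had log2 fold changes of -0.11, 0.17 and -0.08, each with overlapping libraries.

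Counted over all 36 genes, all KO libraries lay above both WT libraries in 2 genes (Larp7 and Snapc5) and below both in 2 (Polr3b and Polr3e). That is 5.56% each way, near the 7.85% above and 6.98% below among all genes tested. Without KO replicate 3 the counts were 10 above and 7 below, or 27.8% and 19.4%, against 23.6% and 18.1% of all genes. Without WT replicate 1 they were 10 and 3, against 21.5% and 18.3% of all genes, and without WT replicate 2 they were 3 and 9, against 20.1% and 21.6%. Without KO replicate 1 they were 4 and 3, against 16.4% and 14.3%, and without KO replicate 2 they stayed at 2 and 2, against 1609 and 1398 of 14625 genes.

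The proteins that hold Pol III RNAs were set beside the RNAs themselves. Ssb (chr2:69861562-69871846, plus strand), the La gene, had 189.8, 199.9 and 219.6 CPM in the KO libraries, against 227 and 195 CPM in the WT libraries, and Trove2 (chr1:143750790-143777068, minus strand), the Ro gene, had 90.7, 80.03 and 109 CPM in the KO libraries, against 121 and 89.5 CPM in the WT libraries. In both genes WT replicate 1 was the highest library and WT replicate 2 lay within the KO range. The log2 fold changes were -0.05 (95% interval -0.39 to 0.28) for Ssb and -0.17 (95% interval -0.63 to 0.29) for Trove2. Over the same libraries Rny1 had 1197, 2978 and 2063 CPM in the KO libraries, against 161 and 213 CPM in the WT libraries, and Rny3 had 1442, 2018 and 1475 CPM in the KO libraries, against 629 and 949 CPM in the WT libraries. On the log2 scale the Y RNA Rny1 differed by 3.39 (95% interval 2.50 to 4.27) and an adjusted p of 0.233, and Rny3 by 1.07 (95% interval 0.46 to 1.69) and an adjusted p of 1 (limma). Neither passed in limma with all libraries. When a KO library was left out, the adjusted p of Rny1 in limma depended on which one. It was 0.00533 without KO replicate 1, 0.326 without KO replicate 2 and 0.163 without KO replicate 3. For both RNAs the KO and WT libraries did not overlap. The authors' deposited table gives Rny1 an FDR of 6.24e-11 at a log2 fold change of 3.48, and Rny3 an FDR of 0.302 at 1.06. The CPM of Rny1 was 13.2, 37.2 and 18.9 times that of Trove2 in the KO libraries and 1.32 and 2.37 times in the WT libraries. For Rny3 the ratios to Trove2 were 15.9, 25.2 and 13.5 in KO and 5.18 and 10.6 in WT. These ratios are not per length, so their change between libraries can be read but not their size. All 3 KO libraries were above both WT libraries in each.

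Vault particles gave the same contrast. The vault RNA Vaultrc5, the 1 gene past the threshold over all genes, had 28.8, 56.95 and 46.3 CPM in the KO libraries, against 1.99 and 1.51 CPM in the WT libraries. It differed by 3.98 on the log2 scale (adjusted p = 0.0471, limma). When a library was left out, its adjusted p in limma was 0.00132 without KO replicate 1, 0.124 without KO replicate 2, 0.0664 without KO replicate 3, 0.378 without WT replicate 1 and 0.513 without WT replicate 2. The authors' deposited table gives it an FDR of 3.58e-25 at a log2 fold change of 4.65. The major vault protein gene Mvp (chr7:126986860-127014621, minus strand) had 17.3, 25.9 and 16.6 CPM in the KO libraries, against 13.5 and 18.2 CPM in the WT libraries. Its highest library was KO replicate 2, and the other KO libraries lay between the WT libraries. Tep1, a vault protein that also binds telomerase RNA, had 2.96, 4.15 and 5.31 CPM in the KO libraries, against 4.54 and 6.11 CPM in the WT libraries, and Parp4, the vault ADP-ribosyltransferase, had 4.37, 6.86 and 6.96 CPM in the KO libraries, against 6.12 and 5.69 CPM in the WT libraries. Neither Tep1 nor Parp4 separated the genotypes. The log2 fold changes of the 3 vault protein genes were 0.30 (95% interval -0.27 to 0.86) for Mvp, -0.31 (95% interval -0.90 to 0.27) for Tep1 and 0.01 (95% interval -0.53 to 0.55) for Parp4. All these intervals ended far below that of Vaultrc5, which ran from 3.30 to 4.67. The CPM ratio of Vaultrc5 to Mvp was 1.66, 2.20 and 2.80 in KO and 0.148 and 0.0829 in WT.

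Of the 3 genes of 7SK proteins 0 passed. Larp7 (chr3:127536714-127553349, minus strand), which binds the U-rich end of 7SK RNA and stabilizes it, had 43.8, 41.95 and 43.6 CPM in the KO libraries, against 41.04 and 40.4 CPM in the WT libraries. The libraries of Larp7 differed little, and its KO libraries were all above WT by a small margin, with a log2 fold change of 0.08 (95% interval -0.20 to 0.36). Mepce, which caps 7SK RNA, had 23.7, 20.8 and 16.7 CPM in the KO libraries, against 18.4 and 20.6 CPM in the WT libraries, and Hexim1, which with 7SK RNA inhibits the elongation kinase P-TEFb, had 26.3, 29.4 and 22.2 CPM in the KO libraries, against 25.6 and 23.3 CPM in the WT libraries. The KO libraries of Mepce and Hexim1 lay on both sides of WT, with log2 fold changes of 0.05 and 0.08. The share of Rn7sk in a library's summed CPM was 11.9%, 6.48% and 2.27% in KO and 3.83% and 3.51% in WT. KO replicate 1 was high and KO replicate 3 low, so its log2 fold change of 0.58 had an interval from -1.69 to 2.84.

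**Figure D2:**
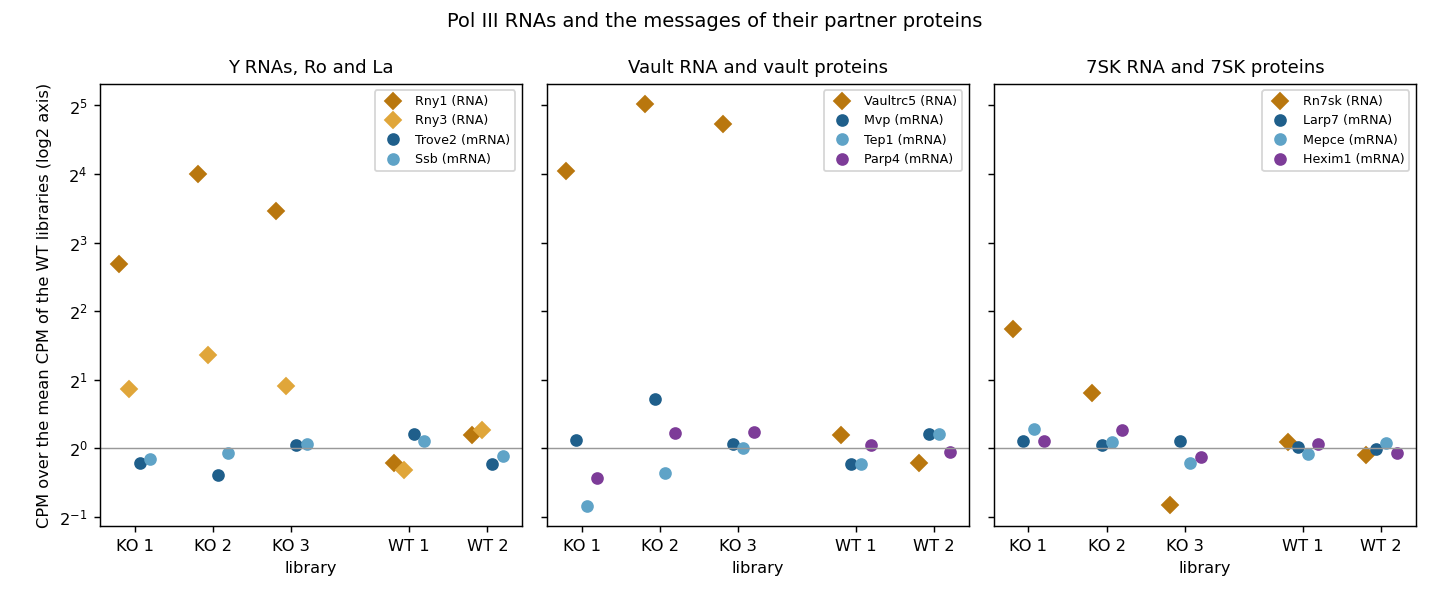
CPM of 4 Pol III RNAs (diamonds) and of the messages of 8 partner proteins (circles) in each library, over the mean of the WT libraries on a log2 axis, with KO left of WT. Rny1, Rny3 and Vaultrc5 lie above WT in all 3 KO libraries, Rn7sk lies on both sides, and all messages but that of Larp7 overlap between KO and WT.

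**Figure D3:**
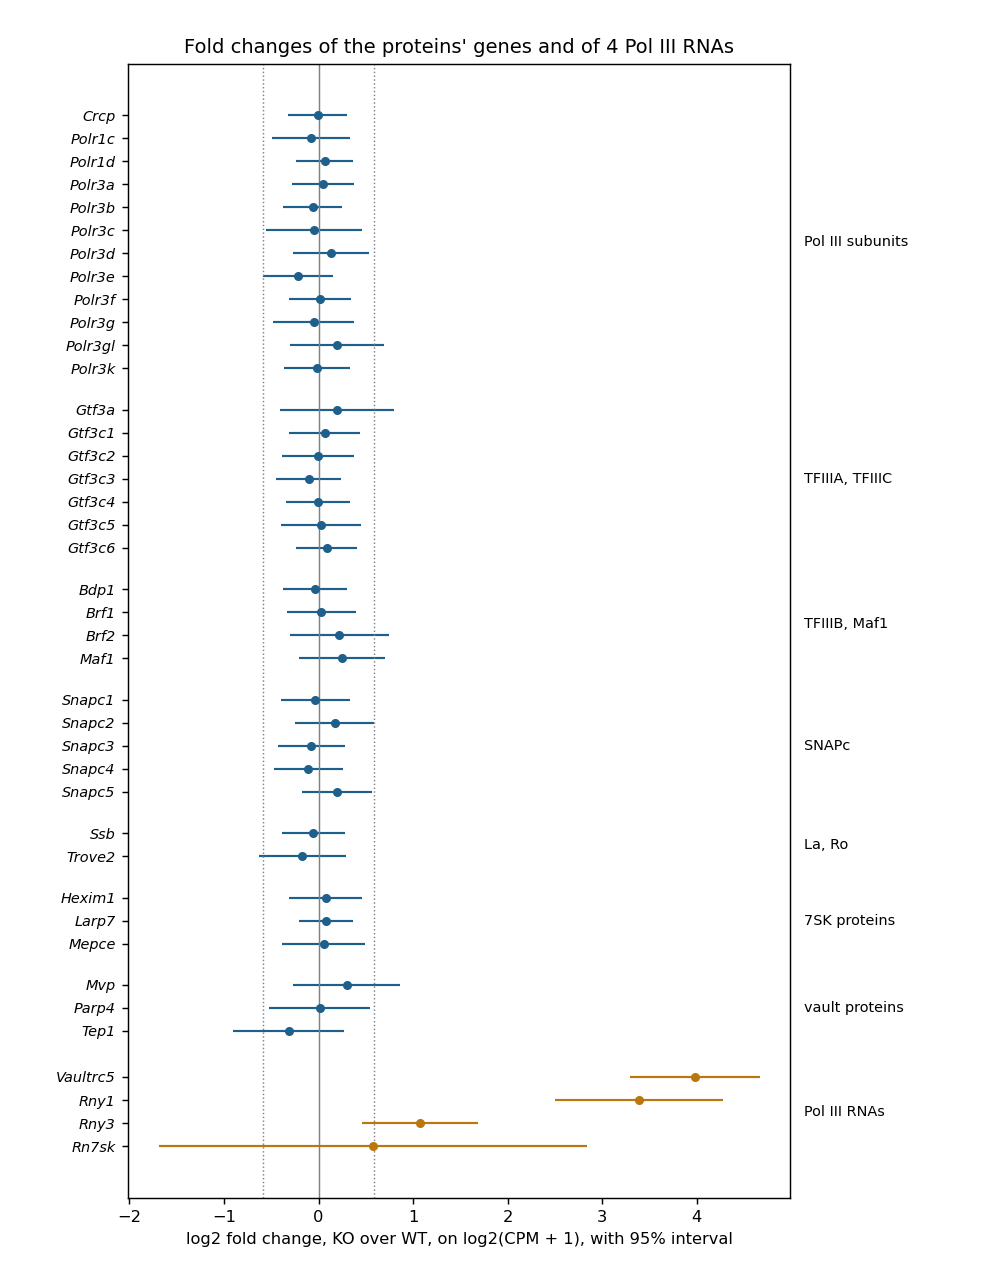
Log2 fold change of KO over WT, on log2(CPM + 1), with its 95% interval for the 36 genes (blue) and 4 Pol III RNAs (orange). Dotted lines mark a 1.5-fold change of CPM + 1. All 36 intervals cross 0, and those of Vaultrc5, Rny1 and Rny3 do not.

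Levels were compared between genes per kb of annotated exon, taken over all transcripts of a gene in GENCODE M21. Over the 5 libraries the La gene Ssb stood highest, at a mean of 95.5 CPM per kb, and its libraries did not overlap those of the next gene, Larp7 (17.8). Below it came Gtf3c6 (16.7), Snapc5 (15.2) and Crcp (14.3) in CPM per kb, a run in which each gene overlapped its neighbour. The catalytic subunits Polr3b and Polr3a stood at 4.08 and 3.62 CPM per kb. Trove2 stood at 10.3 CPM per kb, well under Ssb. At the low end were Polr3g (1.94), Snapc1 (1.86), Brf2 (1.69), Parp4 (0.92) and Tep1 (0.48) CPM per kb. Of the 35 neighbouring pairs in this order, 4 had library ranges that did not overlap: Ssb with Larp7, Brf1 with Snapc4, Brf2 with Parp4, and Parp4 with Tep1. Exon length over all transcripts can include parts that these cells do not use.

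**Figure D4:**
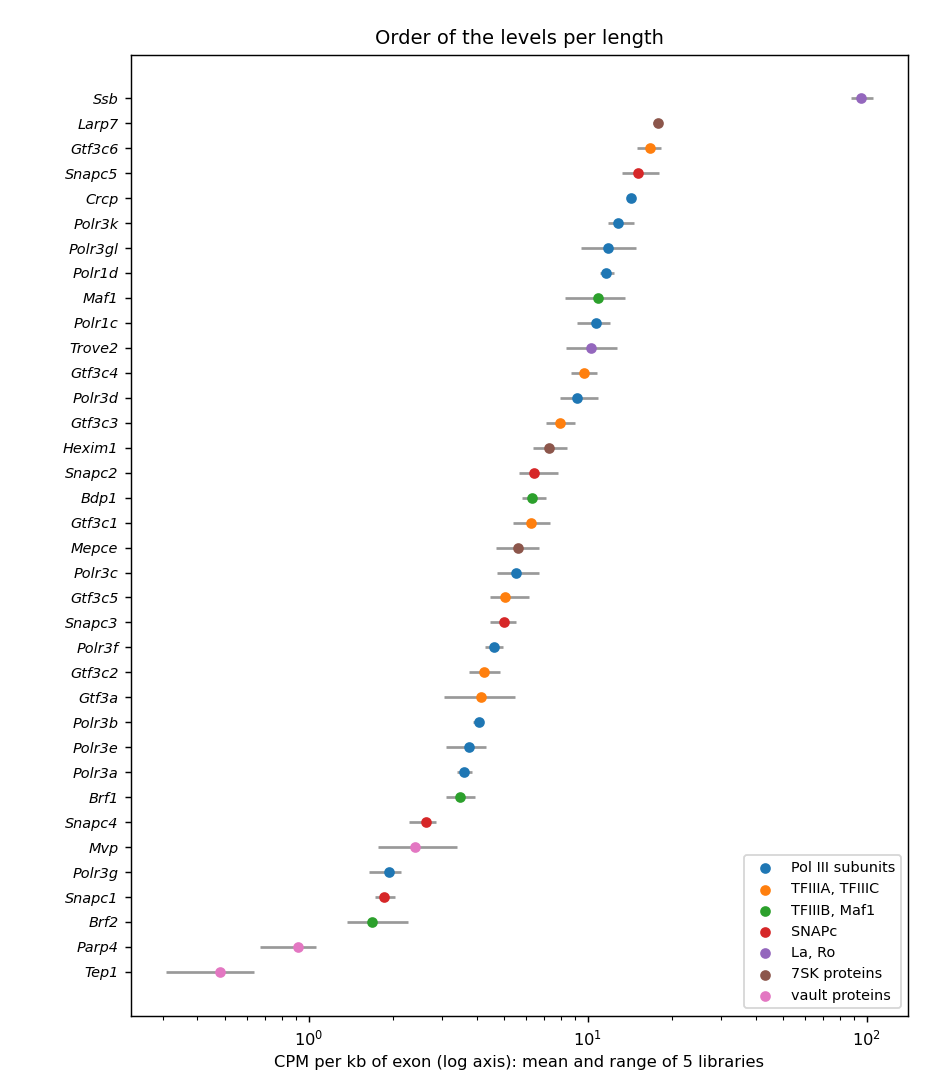
Mean level of each gene over the 5 libraries in CPM per kb of exon (log axis), with a line from the lowest to the highest library and a colour for each complex. Ssb stands apart at 95.5, the 3 vault protein genes and Brf2 are near the bottom, and most neighbours overlap.

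Libraries of the same genotype also differed. Among the KO libraries, replicate 1 was the highest in 19 of the 36 genes (52.8%), against 39.5% of all genes tested. For 17 of the 36 genes (47.2%) it was the highest of all 5 libraries, against 28.2% of all genes. WT replicate 1 was above WT replicate 2 in the median of the 36 genes, by 0.060 against -0.060 on the log2 scale relative to their mean. For all genes tested these medians were 0.015 and -0.015. Set within the Xist-high libraries, KO replicates 1 and 2 minus WT replicate 2, the median difference of the 36 genes was 0.11. Within the Xist-low ones, KO replicate 3 minus WT replicate 1, it was -0.066. The medians of all genes tested were 0.027 and -0.017 in these comparisons. Of the 36 genes 11 (30.6%) had the same sign in both, against 39.8% of all genes tested, in comparisons that have 1 WT library each and no test.

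Other genes of transcription did not pass either. A list of 9 tested genes, which holds subunits shared with other polymerases, TBP and the upstream activators Pou2f1 and Zfp143, had 0 that passed in either direction. The smallest p in it were for Polr2e, with a log2 fold change of 0.32, and Zfp143, with -0.15. Of 17 genes specific to Pol I or Pol II 0 passed, led by the Pol II subunit gene Polr2j (0.27) and the Pol I factor gene Taf1d (-0.29). Of 20 regulators, among them Myc, Rb1, Trp53 and the mTOR pathway, 0 passed. The smallest p there belonged to Ppp4c, a phosphatase known in yeast to act on Maf1, with 75.8, 69.96 and 46.1 CPM in the KO libraries, against 48.1 and 42.9 CPM in the WT libraries, followed by Csnk2b (0.22), a subunit of a kinase that acts on TFIIIB. In Ppp4c KO replicate 3 lay between the WT libraries.

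Nor did any gene of the protein lists that handle RNA pass, and at an unadjusted p under 0.05 there were 0 in the 3 lists of transcription genes above. Each of the following counts is of tested genes that passed over all genes, in either direction (limma). Of the 5 La-related proteins 0 passed, led by Larp1b (0.20) and Larp1 (-0.06). Of 14 genes of P-TEFb and 7SK release 0 passed, led by the helicase gene Ddx21 (-0.25), whose KO libraries were all below WT. Of 15 genes of Y RNA-binding proteins 0 passed, and 1 had an unadjusted p under 0.05. Mov10, another gene of that list, which encodes a helicase, had 30.4, 24.5 and 17.4 CPM in the KO libraries, against 15.3 and 16.2 CPM in the WT libraries. All its KO libraries were above WT, with an unadjusted p of 0.0538 and an adjusted p of 1 (limma).

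Of 12 genes of vault RNA modification, small RNA processing and telomerase 0 passed, led by Dkc1 (-0.27) and Nsun2 (-0.16), the methyltransferase that acts on vault RNA. Of 10 RNase P and RNase MRP proteins 0 passed, led by Rpp38 (-0.34) and Pop4 (0.24). Of 14 genes of transfer RNA end processing, splicing and export 0 passed, led by Rtraf (0.19) and Elac1 (-0.20). Of 17 genes that tail, trim or bind the ends of small RNAs 0 passed, led by Lsm5 (0.42) and Papd7 (-0.18). That list includes the terminal uridylyltransferases and Lsm genes. Srp9 and Srp14, which bind Alu-type Pol III RNA, had log2 fold changes of 0.02 and 0.23. Of the 6 tested Pol III transcripts 1 passed, Vaultrc5, and all 6 had positive fold changes. That list was assembled with earlier results of these libraries known, so it is no independent evidence of a direction.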

How the data were processed

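Reads were aligned with HISAT2 2.1.0 to mm10, counted with featureCounts and compared with edgeR 3.20.1, per the submitters' processing notes; the sources used here give neither the annotation nor how strand and multiply matching reads were handled. For each library the authors deposited a signal, the CPM of the effective library size. They also deposited a log2 fold change, a likelihood ratio score, a p-value and an FDR. Under 100 CPM, 100% of values were a whole number of reads to within 0.0055 CPM, but rounding to 2 decimals kept low values from meeting the rule set for a count model, so none was run.

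Values were tested with limma 3.58.1 (R 4.3.3, trend, genotype as the 1 term) on log2(CPM + 1) over 14884 genes reaching 0.5 CPM in 2 or more libraries, with two-sided p-values adjusted by Benjamini-Hochberg and a threshold of 0.05. Fold changes on this scale understate the change of low genes. The code was tested on simulated data. Genes given by library were 18 members fixed by role, whatever their values, any other member past the threshold or separated at an unadjusted p under 0.05 (there was none), and the 2 smallest p of each other list, some of which are not reported here. Polr3c, Polr3d, Polr3e, Crcp, Snapc5 and Gtf3c1 are given by library after their values were seen. Members and lists were chosen with earlier results of these data known. Of the 36 genes 3 overlap exons of a gene on the same strand (Gtf3c2, Mvp and Snapc1). On the other strand 10 do (Gtf3a, Brf1, Brf2, Ssb, Tep1, Parp4, Polr3b, Polr3gl, Snapc3 and Snapc4). Part of the reads of all these genes is uncertain. Coordinates and lengths are from GENCODE M21 (GRCm38), and intervals are limma's, for single genes.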

Additional observations from a re-analysis of the deposited data

How the results depend on the processing

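No member of the 36 passed under any of the 14 alternatives run, and the smallest adjusted p of a member over them was 0.121 (limma), with a replicate block. Their median log2 fold change ran from -0.0495 (without WT replicate 2) to 0.0921 (without WT replicate 1) when a library was left out, and lay between -0.0046 and 0.0443 otherwise. The number of genes past the threshold, 1 with all libraries, was 0 with a pseudocount of 5, no filter, median-of-ratios size factors, no trend or a term for Xist, and 0 to 8 when a library was left out. Vaultrc5 was lost in each count of 0 and also without KO replicate 3 (adjusted p = 0.0664, limma). With the deposited values rescaled to plain CPM 3 members lay above both WT libraries and 1 below. That is 8.33% and 2.78%, against 11.5% and 4.69% of all genes tested. Left-out libraries gave 2 to 10 above and 2 to 9 below, and the values for all genes stand beside these counts in the Results. The difference, KO minus WT, in the log2 ratio of Polr3g to Polr3gl ran from -0.47 to -0.10. Of 252 values of named members, 251 moved by less than their residual SD and 1, Larp7 under plain CPM (0.11), by more. Many could not move so far. The filters and the fit without trend leave fold changes as they are, and leaving out a KO library cannot move them by that SD. The replicate block repeats the values without KO replicate 3. Signs changed in up to 13 of the 36 genes, without WT replicate 1. No setting called a member. The replicate numbers are shared by 2 pairs and no label says what they mark. Deviations of same-numbered libraries correlated across genes at 0.414 and 0.537. With 2 WT libraries their deviations mirror each other, so these are not independent signs of pairing. With the replicate block limma called 390 genes, 339 higher, with 0 members among them and 7 members (19.4%) at an unadjusted p under 0.05, against 21.1% of all genes. Rny1 passed in that fit (adjusted p = 0.0105, limma), and the difference in the log2 ratio of Polr3g to Polr3gl was -0.47. KO replicate 3 has no partner and adds nothing to that fit. Depth gave each member at least 94 reads in every library. Still, 8 of the 36 intervals reached past a 1.5-fold change of CPM + 1.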
